A study of Xenopus laevis with 3 samples.

Results

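The enzymes of heme synthesis were examined on microarrays of the larval inner ear of *Xenopus laevis*. The members were the Xl-PSIDs (*X. laevis* probe set IDs) whose symbol in the platform's annotation, with the mark of the L or S copy removed, was *alas1*, *alas2*, *alad*, *hmbs*, *uros*, *urod*, *cpox*, *ppox* or *fech*. This rule found 12 of the 32635 Xl-PSIDs on the array, for 7 of the 9 genes. In the annotation used here no Xl-PSID carried *hmbs* or *cpox*, so the steps made by those enzymes were not analysed here. A further 16851 Xl-PSIDs had no symbol. The *X. laevis* genome is allotetraploid, and its L and S gene copies (homeologs) were kept apart. The genes *alas1*, *alas2*, *alad*, *uros* and *urod* had an Xl-PSID for either copy, while *ppox* and *fech* had one for the L copy only.

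Inner ears were pooled from larvae of stages 50 to 52, aged 15 to 21 days after fertilization, which the study designates *s50*. The 3 pools held 15, 38 and 24 animals and gave the arrays named s50_1, s50_2 and s50_3 here, with labelling from 1, 1 and 0.7 µg of total RNA. Strain, genotype and sex are not given in the sources used here, and no treatment is named for any pool. All arrays are of a single condition, so there is no group to compare with and no test was made. Each value is a log2 intensity (arbitrary units of fluorescence) after GCRMA, a background correction and normalization for such arrays, and means are given ± SD with n = 3 pools. The number of arrays limits the precision. Intensities of different Xl-PSIDs also depend on their probes and were not ranked as transcript abundance. The differences of an Xl-PSID between arrays were compared instead.

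Heme is the iron-bearing ring that lets hemoglobin carry oxygen, and cytochromes and catalase need it as well. Its synthesis starts and ends in the mitochondrion, with the middle steps in the cytosol. The first enzyme, 5-aminolevulinate synthase, sets the pace, and vertebrates have a form for most tissues (*alas1*) and a form for developing red blood cells (*alas2*). In mammals *alas1* is held down by heme itself, whereas translation of *alas2* follows the iron supply. The enzymes after this step are shared by red blood cells and other tissues.

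The *s50* inner ear arrays carried signal for the enzymes from the first step to *ppox*, apart from those of *hmbs* and *cpox*, which were not measured. Detection meant a mean of 4 or more, which the study also required before it called an Xl-PSID upregulated. By this measure 11 of the 12 members were detected, against 64.8% of all Xl-PSIDs and 73.3% of the 15505 Xl-PSIDs with a single gene symbol. The same 11 were at least 4 on every array, where they lay between 6.91 and 12.46. The exception was *fech.L*, the last enzyme of the pathway. The plot of levels in pathway order shows each value.

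**Figure D1:**
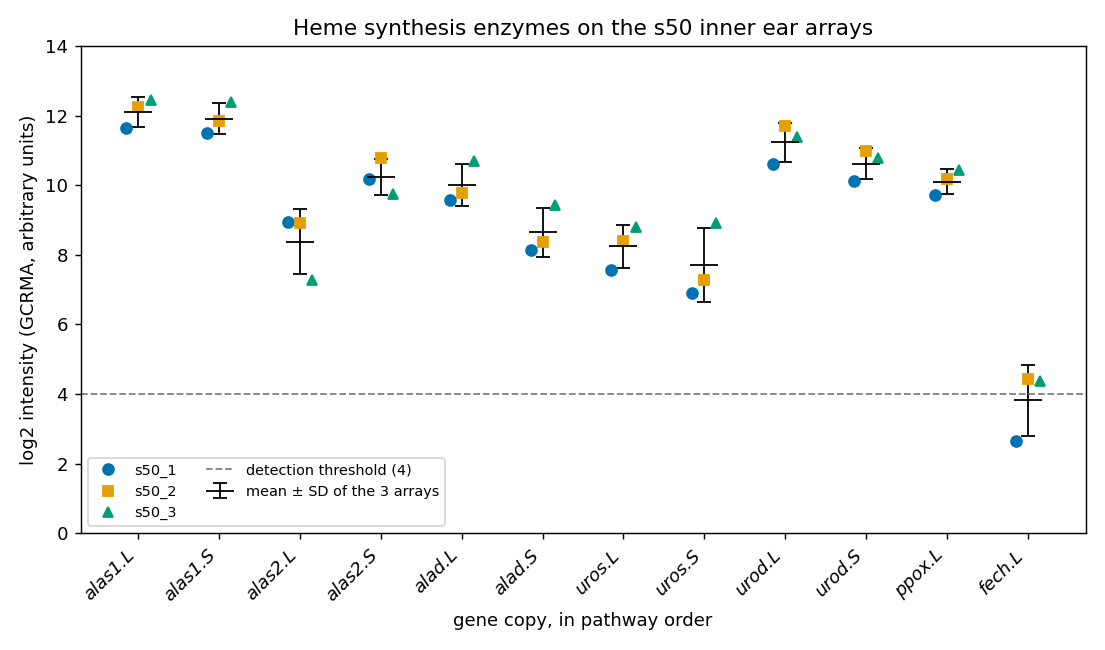
Log2 intensity (vertical axis, GCRMA, arbitrary units) of the 12 heme synthesis Xl-PSIDs in pathway order (horizontal axis) on s50_1 (circles), s50_2 (squares) and s50_3 (triangles), with the mean ± SD of the 3 arrays in black and the detection threshold of 4 as a dashed line. Only *fech.L* has a mean below the line, and *alas2.L* and *alas2.S* alone have their lowest value on s50_3.

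Both copies of *alas1*, the housekeeping form of the first enzyme, were bright on all arrays. The Xl-PSID of *alas1.L* (Xl2.2269.1.S1_at) had 11.63, 12.25 and 12.46 on s50_1, s50_2 and s50_3, a mean of 12.12 ± 0.43, and values are given in this order throughout. That of *alas1.S* (Xl2.23853.1.S1_at) had 11.49, 11.85 and 12.38, a mean of 11.91 ± 0.45. For each copy s50_1 was lowest and s50_3 highest, and the whole range was 0.83 for L and 0.89 for S.

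The erythroid form *alas2* was detected as well, but its arrays had another order. The Xl-PSID of *alas2.L* (Xl2.23767.1.S1_at) had 8.95, 8.91 and 7.29, a mean of 8.38 ± 0.95. That of *alas2.S* (Xl2.49519.1.S1_at) had 10.19, 10.79 and 9.75, a mean of 10.24 ± 0.52. Both copies were lowest on s50_3, the array on which both copies of *alas1* were highest. The value of *alas2.L* on s50_1 was 3.16-fold that on s50_3. Between these arrays *alas2.S* differed less, by -0.44 for s50_3 minus s50_1, and its highest value was on s50_2. RefSeq lists the name alas2.S among the other names of *alas2.L*, so the naming of the copies has changed over time, while the gene identifiers of the Xl-PSIDs are distinct.

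Both copies of *alad* and of *uros*, enzymes of the cytosol, were lowest on s50_1 and highest on s50_3. The product of *alad* joins 5-aminolevulinate into the pyrrole porphobilinogen. Its L copy (Xl2.12941.1.S1_at) had 9.57, 9.77 and 10.71, a mean of 10.02 ± 0.60. Its S copy (Xl2.10336.1.S1_at) had 8.13, 8.37 and 9.45, a mean of 8.65 ± 0.70. For *alad* the value on s50_3 stood apart, since s50_1 and s50_2 differed by 0.20 for the L copy and by 0.24 for the S copy. Uroporphyrinogen III synthase, the product of *uros*, closes the ring in the form that leads on to heme. The Xl-PSID of *uros.L* (Xl2.49000.1.S1_at) had 7.56, 8.38 and 8.79, a mean of 8.24 ± 0.63. That of *uros.S* (Xl2.49923.1.S1_at) had 6.91, 7.29 and 8.90, a mean of 7.70 ± 1.06. Its range of 1.99 was the largest of all members, detected or not, and its value on s50_3 was 3.97-fold that on s50_1.

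The copies of *urod*, which trims the side chains of the ring, shared yet another order of arrays. The L copy (Xl2.15429.1.S1_at) had 10.61, 11.71 and 11.38, a mean of 11.23 ± 0.56. The S copy (Xl2.41506.1.S1_at) had 10.11, 10.98 and 10.77, a mean of 10.62 ± 0.45. For both, s50_1 was lowest and s50_2 highest, with s50_3 less than 0.33 below s50_2.

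The enzymes that end the pathway in the mitochondrion were represented by *ppox* and *fech*. Protoporphyrinogen oxidase, the product of *ppox*, makes protoporphyrin. The Xl-PSID of *ppox.L* (Xl2.24954.1.S1_at) had 9.71, 10.17 and 10.43, a mean of 10.10 ± 0.37, the smallest SD of all members. Ferrochelatase, the product of *fech*, inserts the iron. The Xl-PSID of *fech.L* (Xl2.211.1.S1_at) had 2.65, 4.43 and 4.38, and its mean of 3.82 ± 1.01 lay just below the detection threshold. Without s50_1 its mean passed 4. RefSeq also lists a *fech.S* gene, and no Xl-PSID was annotated to it. A low intensity of a single Xl-PSID does not show that the enzyme was missing from the tissue.

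Among the 11 detected members, 9 had their lowest value on s50_1 and 2 on s50_3, and none had it on s50_2. Over all 21156 detected Xl-PSIDs, the shares lowest on s50_1, s50_2 and s50_3 were 42.3%, 21.5% and 36.2%. The 9 members with the lowest value on s50_1 were those other than *alas2*, and *fech.L* was lowest there too. In 7 of the 11, s50_1 was lowest and s50_3 highest, an order that 31.3% of detected Xl-PSIDs had. The Xl-PSIDs behind these background shares are not independent of each other. Nor are the members, since *alas1*, *alas2*, *alad*, *uros* and *urod* each entered these counts with both copies. The split of *alas2* from the other members was made after their values were seen.

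Set against their own means, the detected members had a median difference of -0.48, 0.14 and 0.35 on the arrays. Over all detected Xl-PSIDs these medians were -0.03, 0.03 and 0.05. Without *alas2* the medians of the members were -0.51, 0.07 and 0.47. The *alas2* copies had medians of 0.26, 0.54 and -0.79. The difference s50_3 minus s50_1 was above 0 for all 9 detected members other than *alas2*, from 0.66 for *urod.S* to 1.99 for *uros.S*. Of all detected Xl-PSIDs, 53.6% had a difference above 0 and 28.2% had one of at least that of *urod.S*. That cutoff is the smallest difference of these 9 members, so all 9 reach it by construction and it is no test of them. For *alas2.L* the difference was -1.66, and 10.7% of detected Xl-PSIDs had one as low. For *alas2.S*, 31.3% had one as low as its -0.44. The plot of differences from the mean shows that the lines of *alas2* cross those of the other enzymes.

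**Figure D2:**
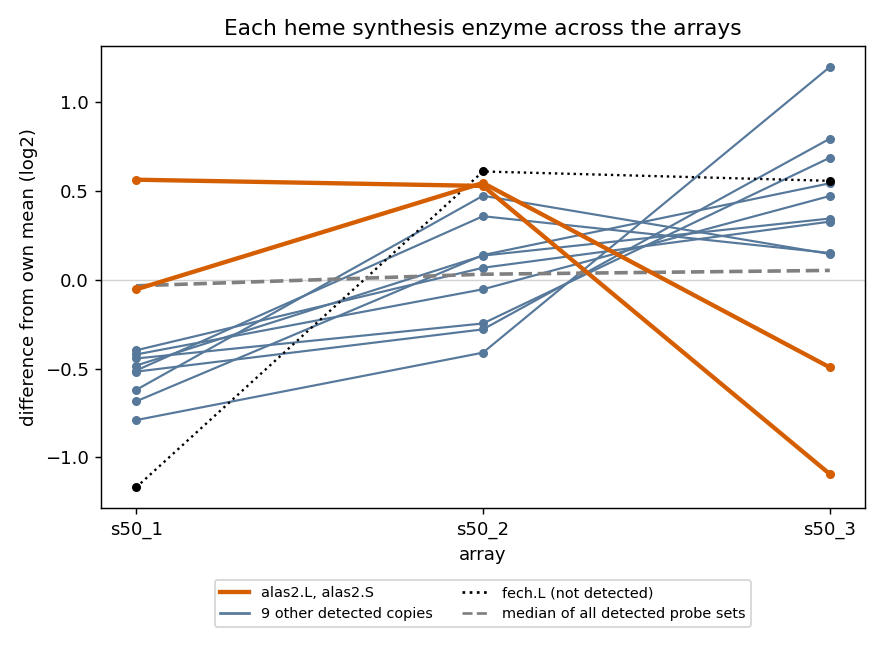
Difference of each of the 12 Xl-PSIDs from its own mean (vertical axis, log2) on the 3 arrays (horizontal axis), with a line for each Xl-PSID, where the arrays have no order in themselves. Both *alas2* copies lie below 0 on s50_3, the 9 other detected copies lie below 0 on s50_1 and above 0 on s50_3, and the median of all detected Xl-PSIDs (dashed) stays within 0.06 of 0.

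The spread between pools was described by the SD and the range. The median SD of the 11 detected members was 0.56, and that of all detected Xl-PSIDs was 0.48. A range of at least 1.5 between arrays was seen for 2 of the 11, *alas2.L* and *uros.S*, against 26.5% of detected Xl-PSIDs. This share depends on the level. It was 29.4% at means from 8 to 10, where *alas2.L* lies, and 44.6% at means from 6 to 8, where *uros.S* lies. A share near the background gives no result about the members.

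The L and S copies of a gene mostly followed each other over the pools. In all 5 pairs both copies had the same lowest array, and in 4 pairs the same highest array, the exception being *alas2*. Among 1538 L and S pairs detected over the array, 62.4% shared the lowest array and 61.6% the highest. The root mean square difference between the copies, after their own means were removed, was 0.08 for *alad*, 0.09 for *urod* and 0.14 for *alas1*. It was 0.50 for *uros* and 0.50 for *alas2*. Over all pairs the median was 0.30, with quartiles of 0.16 and 0.55. Probe sequences were not analysed here, so whether a probe set of one copy also binds the transcript of the other was not tested.

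**Figure D3:**
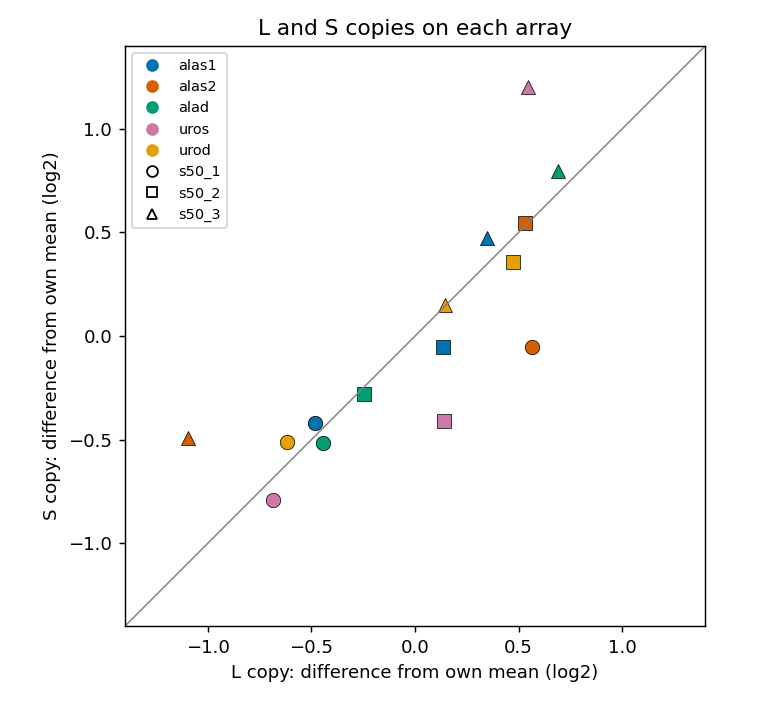
Difference from its own mean of the S copy (vertical axis, log2) against that of the L copy (horizontal axis, log2) for the 5 genes with both copies, with a colour for each gene and a symbol for each of the 3 arrays. Points of *alad*, *urod* and *alas1* lie near the line of equal values, while *uros* and *alas2* have points farther from it.

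Red blood cells are the main users of *alas2*, and their other genes were set beside it. Of 10 globin genes measured, 9 were detected, and 6 of them were above 13 on every array. The larval alpha-globin *hba3* had 15.26, 15.29 and 15.25 on s50_1, s50_2 and s50_3. The beta-type globin *hbd* had 15.05, 15.10 and 14.98. The 6 bright globins differed by 0.16 at most between arrays. The highest value of any Xl-PSID was 16.00, and near it a difference between pools may be compressed, so these values do not show that globin transcripts were equal in the pools. Dimmer globins had their own order, as *hbg1* had 4.60, 10.43 and 7.44 and *hba-l5* had 10.75, 11.22 and 11.92. Globin genes form a family whose members may share probes.

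Other genes of red blood cells did not move in a single direction. The anion exchanger of the red cell membrane, *slc4a1* (band 3), had 11.28, 10.91 and 8.13. The lowest array was s50_3, as for *alas2.L*, which had nearly equal values on s50_1 and s50_2 (8.95 and 8.91). The membrane skeleton gene *epb41* had 11.46, 11.23 and 8.87, again lowest on s50_3. In contrast, the L copy of *gata1*, the main transcription factor of red cell precursors, had 3.67, 5.37 and 6.08 and was lowest on s50_1. Its value on s50_1 was below the threshold, and the S copy of *gata1* was at the floor with 2.07, 2.09 and 2.09. The membrane glycoprotein gene *gypc*, with 4.79, 7.36 and 6.92, was also lowest on s50_1. The water channel gene *aqp1* had 7.40, 2.87 and 1.91. Its mean of 4.06 was just above the threshold. Of 11 measured genes of the red cell membrane and cytosol, 10 were detected. Of the 10, 5 were lowest on s50_3 and 3 on s50_1, against 36.2% and 42.3% of all detected Xl-PSIDs. The pyruvate kinase gene *pklr*, with 10.85, 10.51 and 12.23, was lowest on neither.

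For the red blood cell markers, 11 of 13 measured genes were detected, and those not detected were *rhag* and *hba1*. Of the 11, 6 were lowest on s50_3 and 4 on s50_1, against 36.2% and 42.3% of all detected Xl-PSIDs. Of the 6, 5 were bright globins, whose arrays differed by 0.16 at most, and the other was *slc4a1*. The log2 of the intensity summed over all 18 Xl-PSIDs of the markers, detected or not, was 17.84, 17.81 and 17.77. The bright globins make up most of it. In pooled tissue, fewer cells of a type and less RNA per cell cannot be told apart. Each array is also a pool of its own, with its own number of animals, and s50_3 had less RNA at labelling. Those differences cannot be told apart from the pool.

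Regulators of red cell formation were measured for 12 genes, of which 9 were detected. Their median difference from their own means was 0.22 on s50_1 and -0.14 on s50_3. The L copy of the cofactor gene *ldb1* had 13.52, 12.71 and 13.67, while its S copy had 11.35, 10.96 and 8.46 and was lowest on s50_3. The kinase gene *jak2*, which acts below the erythropoietin receptor, had 11.78, 11.49 and 10.78 on its brightest Xl-PSID. The factor *nfe2* had 12.02, 11.44 and 10.73 on its brightest Xl-PSID. Of the 7 Xl-PSIDs with this symbol, 4 were lowest on s50_3, among them one with 9.38, 7.22 and 2.12. The other 3 were lowest on s50_1, with 6.68, 7.42 and 8.01, with 3.70, 7.61 and 4.98, and with values of 1.90 to 1.93 at the floor. The partner factors *lmo2* (8.53, 10.41 and 9.84) and *tal1* (8.67, 9.91 and 8.29) were highest on s50_2, and *stat5b* (6.97, 6.40 and 5.43) on s50_1. The genes *epor*, *gfi1b* and *myb* were not detected.

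Iron entry and the mitochondrial supply of the pathway were covered by 18 measured genes, and 16 were detected. Many listed genes had several Xl-PSIDs and so more than 1 chance to pass the threshold. Counts of detected genes in the lists are therefore not comparable with the 64.8% of single Xl-PSIDs, and give no result about these genes. The iron-sulfur scaffold gene *iscu* had 14.20, 14.17 and 13.79, *pgrmc1*, a heme-binding membrane protein, had 13.74, 13.74 and 13.65, and the iron carrier gene *slc25a28* had 13.29, 13.34 and 13.37. These Xl-PSIDs differed by less than 0.42 between arrays, while another Xl-PSID of *pgrmc1* had 11.28, 9.63 and 8.13. Further Xl-PSIDs of *slc25a28* did not share an order of arrays. They had 9.99, 8.48 and 8.11 (L copy), 12.77, 12.49 and 12.47 (S copy) and 6.87, 5.67 and 8.95 (S copy). The gene *tmem14c*, which in mouse moves a heme precursor into the mitochondrion, had 13.05, 12.63 and 11.32. The lowest array of *tmem14c* was s50_3, as for both *alas2* copies and for 36.2% of all detected Xl-PSIDs. By the brightest Xl-PSID no other detected gene of this list differed by as much as 1.5 between arrays. The gene *fdxr* came close, with a range of 1.48 (10.03, 10.75 and 11.51). Dimmer Xl-PSIDs of *fdxr* differed by more than 1.5, among them one with 6.15, 5.22 and 8.92. All Xl-PSIDs of *fdxr* were highest on s50_3. Of the 16, 9 were lowest on s50_1 and 5 on s50_3, against 42.3% and 36.2% of all detected Xl-PSIDs. The median difference s50_3 minus s50_1 of the 16 was 0.20, and that of all detected Xl-PSIDs was 0.09.

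Genes of heme breakdown, export and binding were detected for 10 of 11 measured. Their median difference s50_3 minus s50_1 was 0.50. The heme-binding gene *hebp2* had 12.50, 12.53 and 12.92, and the transporter gene *flvcr2* had 11.20, 11.38 and 11.99. The biliverdin reductase gene *blvrb* had 11.53, 11.31 and 11.09. Heme oxygenases open the ring. Of these, *hmox2* had 8.97, 7.93 and 9.75 and was highest on s50_3. The L copy of *hmox1* had 11.31, 11.46 and 10.71 and its S copy had 5.72, 6.77 and 3.52, both lowest on s50_3. The heme transporter *slc48a1*, which returns heme from lysosomes, had 11.67, 11.72 and 9.67, lowest on s50_3 like *alas2*. The nuclear receptor gene *nr1d1*, which binds heme, had 7.94, 8.90 and 9.65, the order of *alas1*. Among 8 genes for iron storage, transport and sensing, 7 were detected, among them a ferritin annotated as *ftmt* (14.76, 14.64 and 14.51), the ferritin receptor *ncoa4* (13.33, 13.16 and 12.64) and the iron exporter *slc40a1* (13.04, 12.91 and 12.21). These 3 were lowest on s50_3. By the brightest Xl-PSID *fbxl5* and *aco1* were lowest on s50_1 and highest on s50_3, and *tf* and *ireb2* were lowest on s50_2. In all 7 the arrays differed by less than 1.5 on the brightest Xl-PSID, while dimmer ones of *fbxl5* and *aco1* differed by more.

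**Figure D4:**
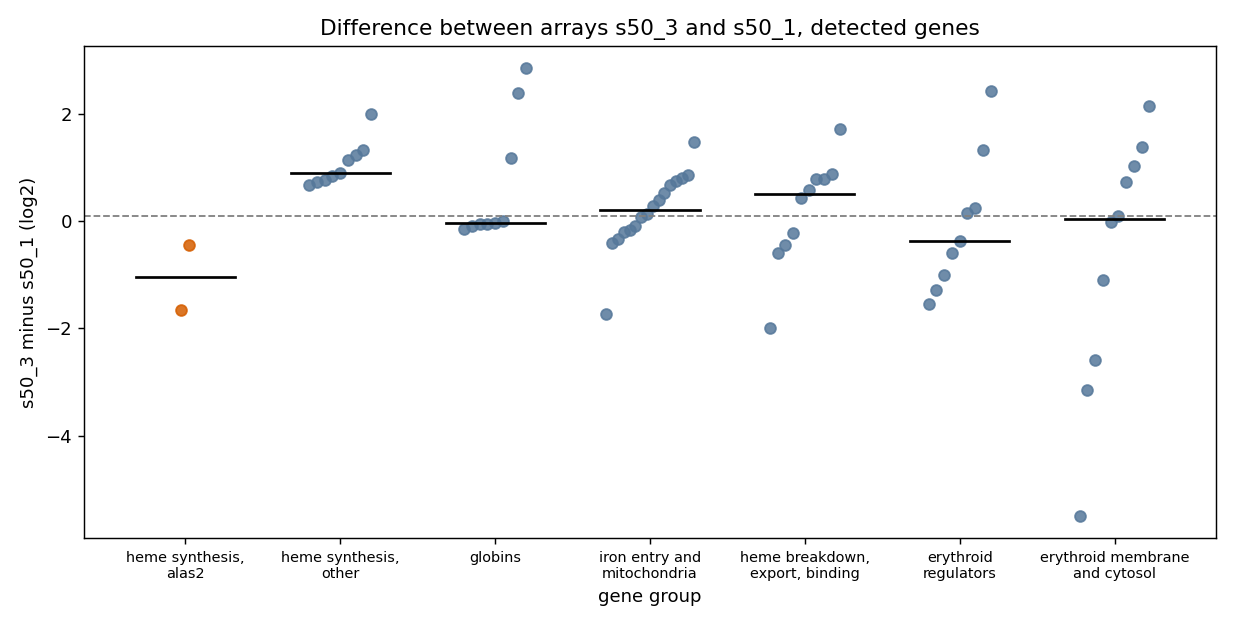
Difference between arrays s50_3 and s50_1 (vertical axis, log2) for detected members and for detected genes of 5 related groups (horizontal axis), with a point for each gene or gene copy, black bars for group medians and a dashed line for the median of all detected Xl-PSIDs (0.09). The 9 members other than *alas2* lie above 0, both *alas2* copies lie below it, and the erythroid groups spread to both sides.

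Markers of some other cell types also differed between arrays. Of 8 skeletal muscle markers measured, 6 were detected. All 6 were lowest on s50_1, against 42.3% of all detected Xl-PSIDs, with median differences from their own means of -0.87, 0.37 and 0.40. The log2 of the intensity summed over all 17 Xl-PSIDs of the list, detected or not as in the other sums, was 16.19, 17.21 and 17.40. This is the order of *alas1*, *alad*, *uros* and *ppox*, and its part in their values was not tested. Of 5 leukocyte markers 4 were detected, and the log2 of the summed intensity was 11.53, 12.21 and 11.68. Of these 4, *mpo*, a heme enzyme of granulocytes, had 3.77, 7.10 and 7.86, and *coro1a* had 4.57, 6.21 and 7.27. The value of *mpo* on s50_1 was below the threshold, and its other Xl-PSIDs were at the floor, from 1.86 to 1.91. The antigen presentation gene *cd74* had 10.98, 11.42 and 10.95, and *lyz* had 8.60, 8.55 and 8.78. Liver, another tissue that makes much heme, had 2 of 7 measured markers detected, while *ttr*, *apoa1*, *fga*, *fgb* and *fgg* were not, and the log2 of the summed intensity was 10.29, 11.74 and 11.67. Neuronal markers (8 of 9 detected) had medians of 0.25, 0.03 and -0.41, but the genes did not share an order of arrays. Of the 8, 4 were lowest on s50_3 and 2 on s50_1, against 36.2% and 42.3% of all detected Xl-PSIDs. Both *nefl* and *nefm* were highest on s50_3. The part of these cell types in the values of the members was not tested. The inner ear itself was marked by *myo6* (12.65 ± 0.44), a motor of hair cells. Among the hair cell markers chosen, only this one was found by symbol in the annotation used here. The study also lists Xl-PSIDs of oncomodulin, another of those markers, and they were not examined here. Further marks of the inner ear came from a list for supporting cells, tectorial membrane and otoconia. Only 4 of its genes were found by symbol, all detected, and the otoconial genes *oc90* and *otol1* were not among them. Of these 4, *otos* had 14.57, 14.51 and 14.59 for its L copy. Its S copy had 11.66, 12.17 and 12.62, lowest on s50_1 and highest on s50_3. By the brightest Xl-PSID *gjb2* (14.75, 14.66 and 14.42), *sox2* (12.64, 12.13 and 10.53) and *tecta.2* (8.58, 8.91 and 7.64) were lowest on s50_3. That array was lowest for 36.2% of all detected Xl-PSIDs. A dimmer Xl-PSID of *sox2* was lowest on s50_2. The medians of the 4 genes were 0.17, 0.20 and -0.46, and the log2 of the summed intensity of their 8 Xl-PSIDs was 16.27, 16.11 and 15.84. The 10 ubiquitous genes had medians of -0.01, -0.03 and 0.02. Their median level was 14.85, where a difference between pools may be compressed, as for the bright globins. Of the 10, 3 were lowest on s50_1 and 3 on s50_3, against 42.3% and 36.2% of all detected Xl-PSIDs. Among the ubiquitous genes *hprt1*, an enzyme of purine salvage, had 11.03, 11.35 and 7.90, a larger difference between s50_3 and s50_1 than that of either *alas2* copy. The gene *tbp* had 9.41, 9.90 and 9.08. In contrast, *sdha* had 12.49, 12.73 and 13.17, lowest on s50_1 and highest on s50_3.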

How the data were processed

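The authors hybridized RNA of 3 inner ear pools to Affymetrix *X. laevis* GeneChips and preprocessed the scans with GCRMA in JMP Genomics. The deposited table holds log2 intensities of 32635 Xl-PSIDs, from 1.62 to 16.00, of which 96 are control probe sets. The sources used here do not say which arrays GCRMA was run on together. The values were used as deposited. Precision rests on 3 arrays.

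Symbols came from the platform's annotation. All 12 gene identifiers of the members matched RefSeq (assembly Xenopus_laevis_v10.1) and none was renamed. No coordinates or sequences are given, since the array names no genome build. The members and lists were chosen with earlier results of these data known. L and S copies were joined in the lists, where a gene took its brightest Xl-PSID. Summed intensities instead took every Xl-PSID of a list, detected or not, so genes with several Xl-PSIDs entered more than once. Taking the brightest makes detection easier for genes with several Xl-PSIDs, and no matched background share was computed for the detected counts of the lists. Named are all members, the 3 brightest and up to 4 most variable detected genes (range of at least 1.5) of the lists, red cell markers, and the 3 Xl-PSIDs most like *alas2.S* and *uros.S*. Some of these are given by counts only, and genes named beside them were chosen after their values were seen. Alternatives were detection at 3 or 5 or on every array, medians or linear means, ranges of 1 or 2, quantile normalization, dropping multi-transcript Xl-PSIDs, updated symbols and leaving out each array. Python 3.11.15, pandas 2.3.3 and numpy 2.4.6 were used. The median difference from the mean and the quantile normalization were tested on simulated data. The counts, the comparison of copies and the search for like Xl-PSIDs were not.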

Additional observations from a re-analysis of the deposited data

How the results depend on the processing

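The number of detected members was 11 to 12 under all alternatives, and the 12 level means of the single members stayed within their SD in all 72 values computed. With 3 arrays, a median or a mean without an array cannot differ from the full mean by as much as the SD. Those values could not have failed, so only quantile normalization and linear means were open to a change. The number of detected members with a range of at least 1.5 was 2, and it was 7 for a range of at least 1 and 0 for a range of at least 2. Leaving out each replicate gave 0 to 2, with 0 without s50_3. The median level of the members, 10.06, was 9.81 to 10.25 when each replicate was left out. No median difference on an array changed by more than the median SD of the members. When an array is left out, the difference of a member can change only by less than its own SD, so this says little there. The median difference on s50_2 was -0.12 without s50_1 and 0.23 without s50_3, so its sign rests on s50_1. The 10 members lowest on s50_1 were also 10 after quantile normalization and became 11 without s50_3, where *alas2.S* joined them. The alternative without multi-transcript Xl-PSIDs left all 12 members in place. The counts of members lowest on an array, of copies with the same lowest array, the difference of *alas2* and the medians without *alas2* were added after seeing the data. No paired analysis was possible because the arrays form 1 group.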

Other observations

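Genes that use heme in respiration and detoxification were detected for 13 of 14 measured. The succinate dehydrogenase subunit *sdhd* had 13.39 on s50_1, 13.49 on s50_2 and 13.22 on s50_3, cytochrome c1 (*cyc1*) had 12.82, 13.06 and 12.53, and the catalase *cat.2* had 12.31, 12.49 and 12.56. By the brightest Xl-PSID of each gene, only *cat.3* had a range of at least 1.5, with 4.96, 7.01 and 8.49. Dimmer Xl-PSIDs of *por* and *sdhd* also had such a range. The median difference s50_3 minus s50_1 of the 13 was 0.37.

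The Xl-PSIDs most like *alas2.S* over the arrays, by the root mean square difference of values from their own means, were those of *aebp2.S* (9.52, 10.12 and 9.08), *impa1.L* (8.09, 8.68 and 7.63) and *senp3.L* (7.76, 8.36 and 7.29). For *uros.S* they were those of *gmeb2.S* (8.63, 9.06 and 10.67), *LOC100127287* (8.62, 9.07 and 10.63) and *pstk.L* (7.58, 8.07 and 9.66). Of 11363 Xl-PSIDs compared over 3 arrays, 74 came within 0.1 of *alas2.S* and 30 within 0.1 of *uros.S*.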
